A study of Mus musculus with 37 samples.

Results

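The genes described here are 31 members of the glutamate receptor family and its partners in mouse brain: 6 NMDA receptor subunits (Grin1, Grin2a, Grin2b, Grin2c, Grin2d and Grin3a), 4 AMPA receptor subunits (Gria1 to Gria4), 5 kainate receptor subunits (Grik1 to Grik5), the delta receptor Grid1, 6 metabotropic receptors (Grm2, Grm3, Grm4, Grm5, Grm7 and Grm8), 8 auxiliary subunits of AMPA receptors (Cacng2, Cacng3, Cacng4, Cacng5, Cacng7, Cacng8, Cnih2 and Cnih3) and Nos1. They were chosen by name, as the rows of the count table whose gene identifier maps to these symbols. All 31 were found among the 56980 genes of the table, and all 31 were among the 19332 genes that passed the filter on low counts. RNA with a polyA tail was sequenced from brain of male, wild-type C57BL/6J mice, and the study's title names the medial prefrontal cortex. Treatment started on postnatal day 25 (adolescents) or postnatal day 55 (adults). Mice drank water or received oral antibiotics, whose agents the labels do not give, and were injected under the skin with saline or with 15 mg/kg morphine, an opioid, for 5 days. The 8 groups are every combination of age, drink and injection, and all of them carry the same wild-type genotype.

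Glutamate is the main excitatory transmitter of the cortex. AMPA receptors carry most of the fast current, NMDA receptors admit calcium when glutamate binds a depolarised cell, kainate receptors modulate transmission on both sides of the synapse, and metabotropic receptors act through G proteins. Auxiliary subunits of the TARP family (the Cacng genes) and the cornichons (Cnih2 and Cnih3) bring AMPA receptors to the synapse and set how long their channels stay open. Nos1 encodes neuronal nitric oxide synthase, which is tethered near NMDA receptors and is switched on by the calcium they admit. Several subunits of these receptors are known to be exchanged for others as the cortex matures.

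Of the 37 libraries, 35 held 10630727 to 31560468 counts and are used here. The other 2, adolescent antibiotics saline replicate 3 and adult antibiotics morphine replicate 4, held 25165 and 58764 counts, of which 106 and 267 fell on the members, and were left out. This leaves 5 adolescent and 3 adult libraries on water with saline, 5 and 5 on water with morphine, 3 and 5 on antibiotics with saline, and 5 and 4 on antibiotics with morphine. The labels do not say that each library came from a separate animal, so the p-values measure the spread between these libraries, which may be technical. The tissue was checked by its markers: Slc17a7, the vesicular glutamate transporter of cortical neurons, was at 1494 to 1937 CPM (counts scaled to a library total of 1000000) in 34 libraries, and Drd2, a dopamine receptor abundant in striatum, at 0.517 to 2.69 CPM. Adolescent water saline replicate 1 stood apart, with 1172 CPM of Slc17a7, 53.3 CPM of Drd2 and 8551 CPM of the myelin gene Mbp, which was at 533.8 to 2893 CPM in the other 34. In that library 19 members lay below, 7 above and 5 within the range of the other 4 of its group. Results that passed in comparisons using that group are therefore also given without it (34 libraries). The ranges of Slc17a7 and Drd2 above include adolescent water morphine replicate 5, so they are no check of it. This library also held extreme values of members and was kept. It was the lowest of the 35 libraries for Gria1 (250.5 CPM), Grik4 (16.9), Grm5 (139), Cacng8 (46.45) and Nos1 (27.1). The same library was the highest for Cacng7 (183) and Grm4 (31.45). In whole tissue, fewer cells of a type and less RNA per cell cannot be told apart.

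The members differed widely in level, here as CPM per kilobase of exon, averaged over the 8 group means. Cnih2 was the highest at 147.4, followed by another auxiliary subunit, Cacng7, at 66.8. The obligatory NMDA subunit Grin1 was at 54.2, ahead of Grin2b at 25.9 and Grin2a at 9.87, the subunits that give NMDA receptors of principal neurons their kinetics. Grin2c, Grin3a and Grin2d were at 8.16, 3.87 and 3.66. Among AMPA subunits Gria1 was at 51.8, Gria2 at 31.2, Gria3 at 25.4 and Gria4 at 16.7. The length used is that of all annotated exons of a gene together, and some orders depend on it. In CPM alone Gria2 was above Gria1 (485.1 and 312.9) and Grin2b above Grin1 (643.2 and 525.7). Grik5, which forms channels only with another kainate subunit, was at 45.6 and stood above Grik3 at 14.8, while Grik4, Grik2 and Grik1 were at 4.27, 3.53 and 1.52. Grid1, the delta receptor, was at 10.9. Metabotropic receptors fell into a higher set, Grm2, Grm3 and Grm5 at 17.97, 17.03 and 16.2, and a lower one, Grm7, Grm4 and Grm8 at 7.95, 3.48 and 2.17. The remaining auxiliary subunits ran from Cacng3 at 50.2 through Cnih3 at 31.7, Cacng8 at 25.9, Cacng2 at 20.03 and Cacng4 at 8.54 to Cacng5 at 1.43, the lowest member. Nos1, which a small share of cortical cells is known to express strongly, was at 3.44. Within groups the SD was 3.36% of the mean for Grid1, the least variable member, and 28.5% for Cacng5, the most variable. The Cacng5 value without adolescent water saline replicate 1 was 19.6%, and Grik3 was the most variable at 19.9%.

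**Figure D1:**
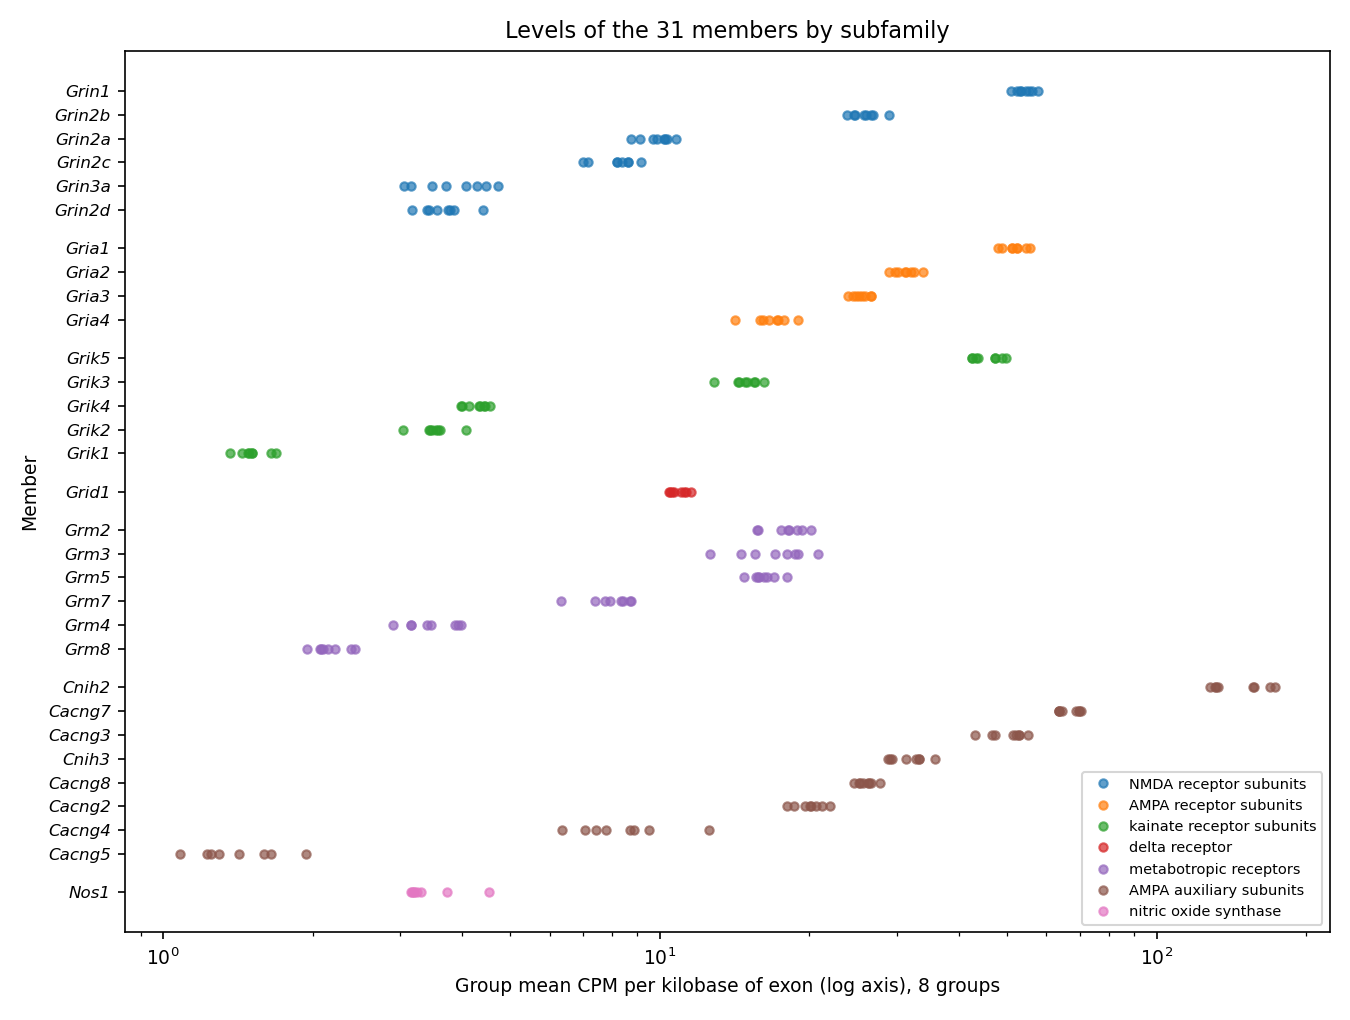
Level of each of the 31 members in CPM per kilobase of exon (log axis), one point for each of the 8 group means, by subfamily and, within each, from the highest mean to the lowest. Cnih2 is the highest at a mean of 147.4 and Cacng5 the lowest at 1.43.

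The groups were compared with edgeR's quasi-likelihood test in 12 comparisons of 2 groups, 3 comparisons averaged over the other factors and 4 interactions, with Benjamini-Hochberg adjustment over all 19332 genes of a comparison and a threshold of 0.05. In the 12 comparisons of 2 groups 8 members passed at least once, in 18 pairs of member and comparison, and in all 18 the member was lower in the later age or the treated group. The share of all genes that passed at least once was not computed, and the shares in each comparison are given below. Changes are log2 fold changes, with their standard error (SE), of adults against adolescents, antibiotics against water, or morphine against saline. The comparisons share libraries, since each group serves as the control of several others.

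**Figure D2:**
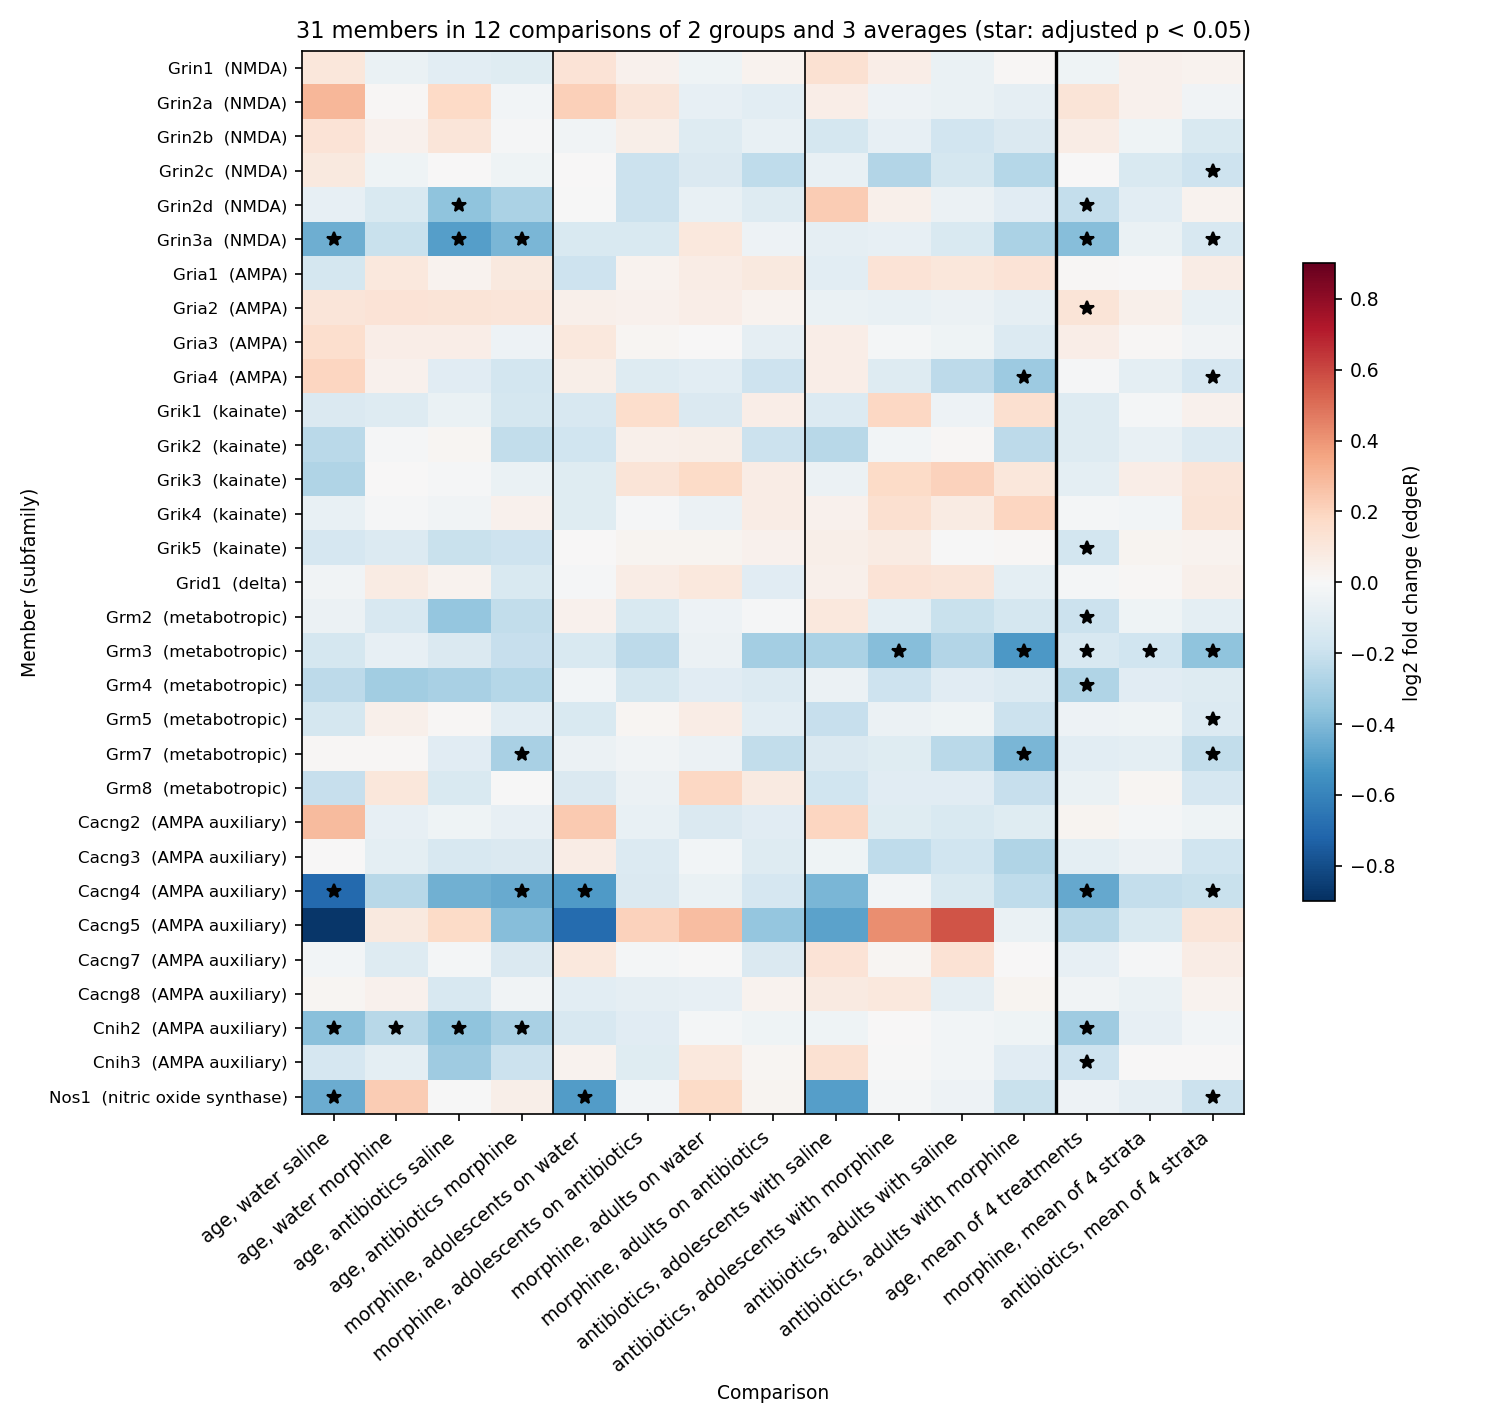
log2 fold change (colour) of each member (rows) in the 12 comparisons of 2 groups and the 3 averaged comparisons (columns), with a star where the adjusted p was under 0.05. Cnih2, Grin3a, Cacng4 and Grin2d have more than 1 star for age, and Grm3, Grm7 and Gria4 for antibiotics, and 1 starred cell, Gria2 for age averaged over 4 treatments, is positive.

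Members that passed with age were lower in adults, with 1 exception. Averaged over the 4 treatments, 9 of the 31 members (29%) were lower in adults and 1 was higher, or 32.3% in either direction, where 11.2% of all genes tested were lower, 9.11% higher and 20.3% changed in either direction. The 9 were Cnih2, Grin3a, Cacng4, Grik5, Grin2d, Grm4, Grm3, Cnih3 and Grm2, and the higher 1 was Gria2. The median log2 fold change was -0.07 over the members and 0.0035 over all genes. Within single treatments, 4 members (12.9%) were lower on water with saline, where 1.92% of all genes were lower and 3.39% changed in either direction. On water with morphine 1 member (3.23%) was lower, against 0.46% of all genes lower and 0.626% in either direction. On antibiotics with saline 3 members (9.68%) were lower, against 0.998% lower and 1.39% in either direction, and on antibiotics with morphine 4 (12.9%), against 1.13% lower and 1.87% in either direction. Without adolescent water saline replicate 1 these 4 counts were 4, 1, 6 and 7, where 4.56%, 1.52%, 3.39% and 4.23% of all genes passed, and the averaged count was 12, where 25.3% did. The members gained there were Grik5 on water with saline, Grik5, Grm2 and Cacng4 on antibiotics with saline, Grik5, Grin2d and Grid1 on antibiotics with morphine, and Grm7 and Cacng7 in the average, while Nos1 was lost on water with saline. The averaged log2 fold changes without that library were -0.33 for Cnih2, -0.40 for Grin3a, -0.41 for Cacng4, -0.17 for Grik5 and -0.23 for Grin2d, with edgeR adjusted p = 6.51e-11, 1.11e-10, 6.3e-10, 4.51e-07 and 2.99e-06. For Grm4, Grm3, Cnih3, Grm2 and Gria2 they were -0.24, -0.14, -0.22, -0.23 and 0.11, with edgeR adjusted p = 0.00198, 0.00294, 0.000518, 0.000209 and 0.0106. For the gained Grm7 and Cacng7 they were -0.10 and -0.078 (edgeR adjusted p = 0.032 and 0.0256).

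Grin3a, the subunit that lowers the calcium permeability of NMDA receptors and is known to be high in young cortex, was the NMDA subunit with the largest change. On water with saline Grin3a was at 46.4, 65.4, 63.4, 57.4 and 57.7 CPM in the 5 adolescent libraries and at 40.6, 43.3 and 44.2 in the 3 adult ones. Grin3a after morphine on water was at 53.4, 54.1, 55.5, 56.3 and 43.2 CPM in adolescents and at 41.6, 48.8, 46.4, 44.2 and 47.05 in adults. The groups did not overlap with saline, while with morphine adolescent replicate 5, at 43.2 CPM, lay within the adult range. In mice on antibiotics with saline Grin3a was at 57.1, 53.1 and 54.1 CPM in adolescents and at 35.8, 39.95, 39.5, 34.5 and 44.02 in adults. For antibiotics with morphine the Grin3a values were 45.4, 46.9, 53.6, 52.5 and 51.4 CPM and 36.2, 34.8, 39.5 and 39.5. Every adult library on antibiotics lay below every adolescent one. Grin3a was lower in adults on antibiotics with saline (log2 fold change -0.50, SE 0.086, edgeR adjusted p = 0.00132), on water with saline (log2 fold change -0.44, SE 0.088, edgeR adjusted p = 0.00397) and on antibiotics with morphine (log2 fold change -0.41, SE 0.081, edgeR adjusted p = 0.00417). On water with morphine the change was -0.20 (SE 0.076, edgeR adjusted p = 0.256) and did not pass. The averaged change was -0.39 (SE 0.041, edgeR adjusted p = 2.15e-08). The water and saline comparison missed the threshold without adult water saline replicate 1 (adjusted p = 0.0517), and its change without adolescent water saline replicate 1 was -0.50 (SE 0.079, edgeR adjusted p = 0.000191).

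Grin2d, a slow NMDA subunit known from interneurons, passed on antibiotics with saline. There Grin2d was at 27.0, 30.5 and 30.3 CPM in adolescents and at 21.3, 24.2, 22.4, 23.5 and 22.7 in adults, with no overlap (log2 fold change -0.36, SE 0.087, edgeR adjusted p = 0.0271). Grin2d with antibiotics and morphine was at 24.6, 26.5, 24.3, 24.9 and 27.7 CPM and 20.2, 23.99, 20.9 and 19.3, again without overlap. On water with saline it was at 18.9, 29.1, 25.5, 26.0 and 26.2 CPM in adolescents and at 23.1, 25.4 and 22.6 in adults, and adolescent replicate 1 was the lowest of the 8. Grin2d on water with morphine was at 25.3, 25.9, 23.4, 27.3 and 22.7 CPM and 22.7, 21.7, 22.5, 24.02 and 22.4, and the ranges overlapped. Averaged over treatments Grin2d was lower in adults (log2 fold change -0.21, SE 0.042, edgeR adjusted p = 0.000388). The antibiotics and saline result missed the threshold without adolescent antibiotics saline replicate 2 or 5 (adjusted p = 0.161 and 0.174) or adult antibiotics saline replicate 1 or 3 (0.0597 and 0.0659). Of its exon bases 9.66% overlap Gm45441 on the opposite strand, and the sources used here do not say whether strand was used in counting.

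The abundant NMDA subunits did not pass with age. Grin1 was at 415, 512, 496, 538 and 511 CPM in adolescents on water with saline and at 517, 540.5 and 533 in adults. Its values on water with morphine were 563, 513, 540.2, 570.3 and 501 CPM and 510.1, 513, 543, 551 and 458. The ages overlapped in both. Grin1 on antibiotics with saline was at 498, 564 and 568 CPM in adolescents and 571, 538, 519, 479.5 and 432 in adults, and with morphine at 578, 617, 488, 527 and 584 CPM and 466, 547, 509 and 551. The averaged age change was -0.042 (SE 0.038, edgeR adjusted p = 0.483), and 13.5% of its exon bases overlap Grin1os on the opposite strand.

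Grin2a and Grin2b are the pair whose balance is known to move from the second to the first during postnatal development. Grin2a was at 94.3, 154, 168, 188 and 182 CPM in adolescents and 196, 198 and 186 in adults on water with saline. With morphine on water its values were 183, 186, 177, 171 and 194 CPM and 172, 202, 182, 203 and 159.7. Adolescent water saline replicate 1 was the lowest of all 35 libraries for Grin2a, and the next lowest of its group was 153.5 CPM. Grin2a on antibiotics was at 162, 161 and 168 CPM in adolescents and 172, 226, 194, 184 and 152 in adults with saline. After morphine on antibiotics it was at 184, 182, 174, 159 and 184 CPM and 158, 185, 176 and 175, and the ages overlapped. The averaged change of Grin2a was 0.12 (SE 0.063, edgeR adjusted p = 0.201) and did not pass.

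Grin2b on water with saline was at 487, 672, 741, 714 and 692 CPM in adolescents and 673, 769 and 717 in adults. Its water and morphine values were 719.8, 705, 642, 593 and 574 CPM and 573, 735, 667, 736 and 618. Adolescent water saline replicate 1 was again the lowest of the 35, and otherwise the ages overlapped. Grin2b on antibiotics with saline was at 599.9, 586 and 588 CPM and 536, 792, 687, 577 and 603, and with morphine at 661, 642, 613, 515 and 635 CPM and 543, 652, 601 and 641. The averaged change was 0.066 (SE 0.055, edgeR adjusted p = 0.427) and did not pass. As a description without a test, the log2 ratio of Grin2a to Grin2b in CPM was -2.10 ± 0.18 (SD, n = 5) in adolescents on water with saline and -1.90 ± 0.10 (n = 3) in adults. Without adolescent replicate 1 the first of these was -2.03 ± 0.12 (n = 4). The other 3 adolescent groups had mean ratios of -1.85 to -1.79 and the other 3 adult groups of -1.86 to -1.78. Grin2c, known from astrocytes and cerebellum in adults, had group means from 35.2 to 46.1 CPM and an averaged age change of 0.0033 (SE 0.044, edgeR adjusted p = 0.969).

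Gria2, whose product makes AMPA channels impermeable to calcium, was the member that rose with age. Gria2 was at 461, 479.8, 459, 486 and 457 CPM in adolescents and 504, 514 and 499 in adults on water with saline, where the adult values were the higher with no overlap. Gria2 values with morphine on water were 511, 455, 515, 509 and 431 CPM in adolescents and 511, 561, 546, 527 and 488 in adults. On antibiotics with saline Gria2 was at 456, 459 and 434 CPM and 464, 531, 531, 431 and 478, and the ranges overlapped. For antibiotics with morphine Gria2 was at 478, 482, 442, 454 and 452 CPM and 429.6, 519, 468 and 571, also with overlap. No single treatment passed, and the averaged change was 0.11 (SE 0.033, edgeR adjusted p = 0.0138), a fold of 1.081.

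Gria1, which carries much of the activity-dependent trafficking of AMPA receptors, did not pass in any comparison. Gria1 was at 342, 347, 313, 318 and 328 CPM in adolescents and 288, 286 and 311 in adults on water with saline. With morphine on water Gria1 was at 302, 314, 311, 274 and 250.5 CPM and 306, 318, 303, 286 and 334. On water the adult values with saline lay below all 5 adolescent ones, whereas with morphine the ages overlapped. Gria1 on antibiotics was at 332, 306 and 289 CPM and 303, 322, 297, 302 and 357 with saline, and at 315, 304, 333, 318 and 314 CPM and 312, 363, 310.3 and 361 with morphine. The averaged age change of Gria1 was 0.013 (SE 0.033, edgeR adjusted p = 0.816). The log2 ratio of Gria1 to Gria2 in CPM, given without a test, ran from -0.78 ± 0.09 (SD, n = 3) in adults on water with saline to -0.51 ± 0.07 (n = 5) in adolescents of the same treatment, or -0.53 ± 0.07 (n = 4) without replicate 1. Gria3 group means ran from 236 to 262 CPM and those of Gria4 from 89.3 to 119, and neither passed with age.

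Of the kainate subunits, Grik5 was lower in adults in the averaged comparison (log2 fold change -0.17, SE 0.027, edgeR adjusted p = 2.78e-05). Its adolescent group means were 244 ± 20.2, 244 ± 8.0, 253 ± 10.9 and 257 ± 16.4 CPM (SD) on water with saline, water with morphine, antibiotics with saline and antibiotics with morphine. The adult means in the same order were 219 ± 9.9, 224 ± 6.3, 219 ± 11.8 and 226 ± 6.3 CPM, and every one lay below every adolescent mean. Without replicate 1 the mean of adolescents on water with saline was 252 ± 11.7 CPM. With adolescent water saline replicate 1 left out, Grik5 also passed in 3 of the 4 single treatments, water with saline, antibiotics with saline and antibiotics with morphine. The group means of Grik1 ran from 9.14 to 11.4 CPM, of Grik2 from 40.3 to 54.01, of Grik3 from 115 to 146 and of Grik4 from 23.7 to 27.1. These 4 did not pass with age, and Grik2 came nearest (log2 fold change -0.11, SE 0.043, edgeR adjusted p = 0.0539). Grid1, which binds cerebellins across the synapse, had group means between 62.2 and 68.8 CPM and did not pass in the average (log2 fold change -0.016, SE 0.021, edgeR adjusted p = 0.64). On antibiotics with morphine the Grid1 change was -0.14 (SE 0.042, edgeR adjusted p = 0.0726), which DESeq2 called and which passed without adolescent water saline replicate 1 (edgeR adjusted p = 0.0377).

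Of the 6 metabotropic receptors 3 passed in the averaged age comparison, all lower in adults, where 11.2% of all genes were lower. Grm4, a presynaptic receptor that lowers transmitter release, was at 23.7 ± 4.9, 23.4 ± 4.8, 23.1 ± 1.6 and 20.7 ± 2.3 CPM in adolescents, in the treatment order used for Grik5, and the first of these was 21.8 ± 2.9 CPM without replicate 1. In adults it was at 20.3 ± 1.3, 18.9 ± 1.1, 18.8 ± 2.0 and 17.3 ± 1.6 CPM (log2 fold change -0.27, SE 0.064, edgeR adjusted p = 0.00234). Grm3, found on both neurons and astrocytes, had an averaged change of -0.14 (SE 0.035, edgeR adjusted p = 0.00302). Grm2, an autoreceptor of glutamate terminals, had one of -0.19 (SE 0.068, edgeR adjusted p = 0.0467). Of the exon bases of Grm2 9.6% overlap Gm28111 on the opposite strand. The Grm2 result missed the threshold in 28 of the 35 fits that each left out 1 library, with the highest adjusted p, 0.112, without adult water saline replicate 1. Without adolescent water saline replicate 1, where Grm2 was at 52.3 CPM against 96.7 to 105 in the other 4 of its group, the averaged change was -0.23 (SE 0.043, edgeR adjusted p = 0.000209). Grm7, which sits in the active zone of terminals, passed on antibiotics with morphine (log2 fold change -0.29, SE 0.074, edgeR adjusted p = 0.0291), where the ages overlapped slightly at 41.2 CPM in the lowest adolescent and 41.4 CPM in the highest adult library. That result missed the threshold without adolescent antibiotics morphine replicate 1, 2, 4 or 5 (adjusted p = 0.0735, 0.0575, 0.0674 and 0.051) or adult antibiotics morphine replicate 1 or 2 (0.131 and 0.107). Grm5, which raises intracellular calcium in the postsynaptic cell, and Grm8, a presynaptic receptor, did not pass with age and had averaged changes of -0.049 and -0.060.

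Cnih2, the cornichon that slows the closing of AMPA channels, was lower in adults under all 4 treatments, and no other member passed in more than 3. Cnih2 was at 215, 249, 253, 236 and 231 CPM in adolescents on water with saline and at 179, 184 and 184 in adults. With morphine on water it was at 219.7, 238, 223, 212 and 178 CPM and 198, 169, 176, 179 and 179.6. The saline groups did not overlap, and with morphine adolescent replicate 5, at 178 CPM, was the only adolescent value within the adult range. Cnih2 on antibiotics with saline was at 231, 229 and 233 CPM in adolescents and 186, 173, 172, 184 and 184 in adults. Its antibiotics and morphine values were 199, 208, 232, 216 and 220.4 CPM and 174, 171, 189.5 and 167. Neither pair of antibiotic groups overlapped. The change was -0.38 (SE 0.065, edgeR adjusted p = 0.000787) on water with saline, where it was -0.40 (edgeR adjusted p = 0.000184) without adolescent replicate 1, and -0.36 (SE 0.064, edgeR adjusted p = 0.00149) on antibiotics with saline. With morphine it was -0.29 (SE 0.06, edgeR adjusted p = 0.00538) on antibiotics and -0.25 (SE 0.056, edgeR adjusted p = 0.0218) on water. The averaged change of -0.32 (SE 0.031, edgeR adjusted p = 2.11e-09) corresponds to 0.801 times the adolescent level. Only the water and morphine result moved across the threshold: it was lost without adolescent water morphine replicate 1, 2, 3 or 4 (adjusted p = 0.0613, 0.123, 0.0867 and 0.0509), without adult water morphine replicate 2, 3, 4 or 5 (0.108, 0.0756, 0.0594 and 0.0586) and with all 37 libraries in the fit (0.0711).

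Cnih2 lies at chr19:5092868-5098521 on the minus strand (GENCODE M21, GRCm38). The 250 bases before its RefSeq start (GRCm38.p6, chr19:5098522-5098771, minus strand) are shown because Cnih2 passed in every comparison of adults with adolescents. Capitals mark the GC box, GGGCGG on either strand, which is a binding sequence of Sp-family factors and was held by 32.9% of 27025 promoters of the same length.
Cnih2: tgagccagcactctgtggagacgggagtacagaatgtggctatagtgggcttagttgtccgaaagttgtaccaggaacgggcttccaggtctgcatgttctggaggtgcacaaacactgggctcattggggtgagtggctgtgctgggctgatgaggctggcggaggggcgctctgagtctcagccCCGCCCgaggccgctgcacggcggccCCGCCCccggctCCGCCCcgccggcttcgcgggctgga
This window held 3 GC boxes, all as CCGCCC, starting 64, 38 and 26 bases before the start, and its GC content was 65.6% against a median of 52.0% over all promoters. Of 4 other motifs searched on both strands, the E-box CACGTG, the CRE half-site TGACG, the AP-1 site TGANTCA and the TATA box TATAAA, none was found in it. They were held by 6.05%, 17.9%, 6.87% and 13% of all promoters. A match or its absence describes only these letters in this window.

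Cacng4, a TARP known to be enriched in the developing brain and in glia, showed the largest averaged change of the members that passed. Cacng4 was at 64.9, 38.5, 48.4, 38.1 and 34.7 CPM in adolescents on water with saline and at 27.2, 30.03 and 26.2 in adults. On water with morphine its values were 33.4, 34.7, 29.3, 31.4 and 29.5 CPM and 27.3, 30.0, 25.1, 25.2 and 25.4. The saline groups did not overlap, and adolescent replicate 1 was the highest of all 35 libraries, while the morphine groups overlapped through adult replicate 2, at 30.0 CPM. Cacng4 on antibiotics with saline was at 31.1, 35.8 and 35.1 CPM and 24.5, 23.9, 27.5, 24.8 and 25.6. With antibiotics and morphine it was at 30.6, 29.7, 31.6, 32.9 and 30.7 CPM and 23.4, 22.7, 25.1 and 19.7. Both antibiotic pairs were free of overlap. The averaged change was -0.46 (SE 0.058, edgeR adjusted p = 8.13e-07). On water with saline Cacng4 fell by 0.70 on the log2 scale in adults (edgeR: SE 0.12, adjusted p = 0.00126), and without adolescent replicate 1 the change was -0.51 (SE 0.087, edgeR adjusted p = 0.000505). On antibiotics with morphine it was -0.45 (SE 0.11, edgeR adjusted p = 0.0314), which missed the threshold without adolescent antibiotics morphine replicate 3, 4 or 5 (adjusted p = 0.0729, 0.0764 and 0.0623) or adult antibiotics morphine replicate 1, 2 or 5 (0.0621, 0.101 and 0.128). Cacng4 (chr11:107732357-107794557) and Cacng5 (chr11:107874605-107915055) are neighbours on the minus strand of chromosome 11.

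Cnih3, the other cornichon, was lower in adults in the averaged comparison (log2 fold change -0.19, SE 0.063, edgeR adjusted p = 0.032). Its group means were 90.0 ± 19.1 to 98.6 ± 5.1 CPM (SD) in adolescents and 79.1 ± 2.9 to 85.9 ± 3.8 CPM in adults. The lowest adolescent mean, on water with saline, was 98.4 ± 4.6 CPM without replicate 1, which was at 56.6 CPM, and the averaged change without that library was -0.22 (SE 0.045, edgeR adjusted p = 0.000518). With it, that result missed the threshold in 10 of the 35 fits that each left out 1 library (adjusted p = 0.0505 to 0.0754), the highest without adult water saline replicate 1. The other 5 TARPs did not pass with age. Cacng2, or stargazin, and Cacng3 had averaged changes of 0.024 and -0.089. Cacng7 and Cacng8, neighbours on chromosome 7, had changes of -0.071 and -0.029. Cacng5 had one of -0.25 at group means of 4.15 to 7.42 CPM. The highest of these means, in adolescents on water with saline, was 5.37 CPM without replicate 1, which was at 15.6 CPM, and the averaged change without that library was -0.12 (edgeR adjusted p = 0.348).

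**Figure D3:**
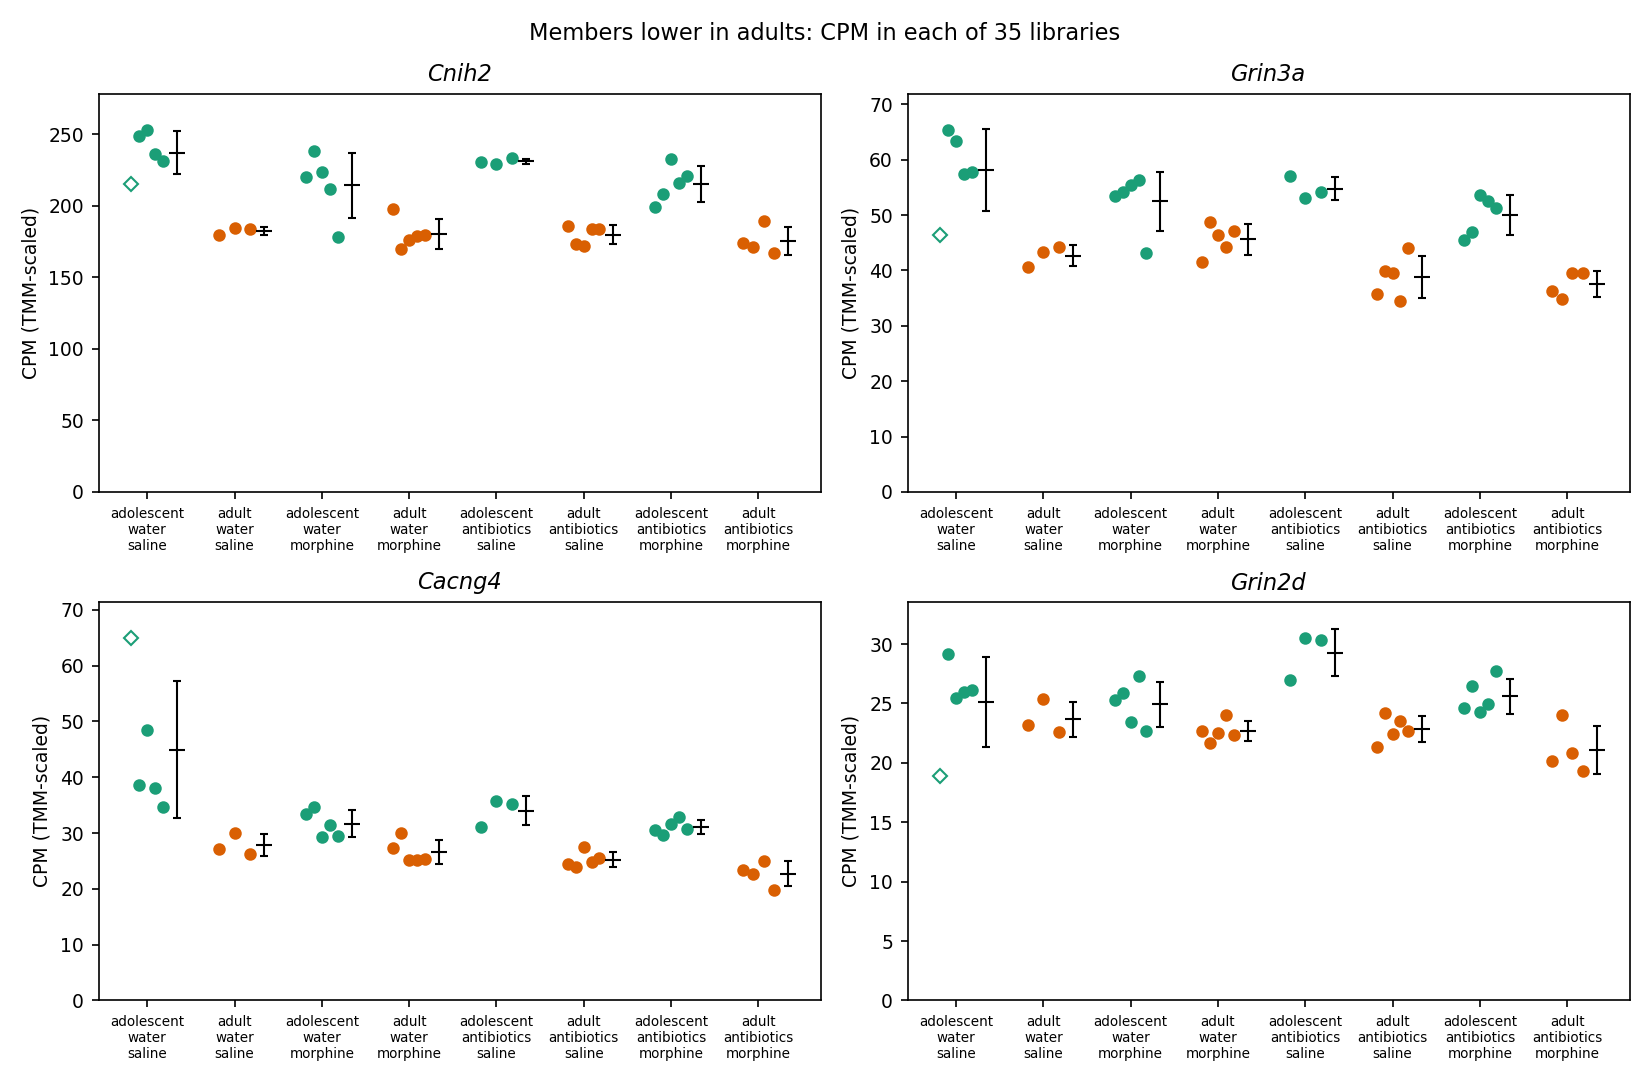
CPM of Cnih2, Grin3a, Cacng4 and Grin2d in each of 35 libraries by group, adolescents in green and adults in orange, with group mean and SD in black; the open diamond is adolescent water saline replicate 1. Adult Cnih2 values span 167 to 198 CPM, and all but 1 adolescent library, at 178 CPM, lie above that range.

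Nos1 differed with age on water with saline. Nos1 was at 49.7, 62.4, 54.4, 42.6 and 43.7 CPM in adolescents on water with saline and at 34.5, 37.9 and 38.1 in adults. On water with morphine Nos1 was at 43.4, 39.7, 32.9, 33.9 and 27.1 CPM and 40.2, 44.0, 40.96, 35.01 and 47.2. The saline groups did not overlap, while with morphine the ages overlapped and all 5 adult libraries lay above the adolescent median. Nos1 on antibiotics with saline was at 38.3, 35.1 and 33.7 CPM in adolescents and 33.8, 34.05, 32.4, 32.3 and 45.4 in adults. Its values on antibiotics with morphine were 31.6, 33.1, 39.3, 36.6 and 34.9 CPM and 35.7, 35.7, 34.9 and 38.5, with overlap in both pairs. Only adolescents on water with saline had a group mean above 41.5 CPM, at 50.6 ± 8.1 CPM (SD, n = 5). The age change on water with saline was -0.45 (SE 0.12, edgeR adjusted p = 0.0408). It missed the threshold without adolescent water saline replicate 1, 2 or 3 (adjusted p = 0.0563, 0.0981 and 0.0781; the change without replicate 1 was -0.44), adult water saline replicate 1, 3 or 5 (0.188, 0.138 and 0.102), adolescent antibiotics saline replicate 2 or 5 (0.0542 and 0.0522) or adolescent antibiotics morphine replicate 5 (0.0503), and with no filter on low counts (0.092). Averaged over treatments the change was -0.043 (SE 0.059, edgeR adjusted p = 0.656) and did not pass. Of its exon bases 2.4% overlap Gm26995 on the opposite strand.

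Related genes outside the 31 were read from fixed lists in the same averaged comparison. Their counts stand beside the 11.2% of all genes that were lower, the 9.11% that were higher and the 20.3% that changed in either direction. Of 22 tested receptor and auxiliary genes of other kinds 5 were lower in adults (22.7%), of 24 postsynaptic scaffold and kinase genes 5 were lower (20.8%), and of 22 synaptic organisers 5 were lower and 3 higher (36.4%). Of 15 glutamate transport and metabolism genes 3 were lower and 1 higher (26.7%), and of 11 nitric oxide signalling genes 1 was lower and 2 higher (27.3%). The 4 listed genes with the smallest p were the immature neuron marker Marcksl1 (log2 fold change -1.10), the AMPA receptor partner Prrt1 (-0.21), the scaffold Dlg2 (-0.18) and the neuronal tubulin Tubb3 (-0.21), with edgeR adjusted p = 1.42e-15, 4.25e-07, 2.78e-06 and 2.83e-06. Markers of some cell types were lower in adults too. Of 9 tested immature neuron markers 7 were lower in adults (77.8%), and their summed level was 681.8 to 888.3 CPM in adults and 881.3 to 1122 CPM in adolescents without water saline replicate 1. Of 9 oligodendrocyte precursor markers 4 were lower (44.4%), with sums of 375.6 to 477.6 CPM in adults and 436.2 to 519.8 CPM in adolescents. Of 6 microglia markers 5 were lower (83.3%), with sums of 244.1 to 336.8 and 278.1 to 395 CPM. Of 9 markers of cortical excitatory neurons 1 was lower (11.1%, near the share of all genes), with sums of 3461 to 4208 and 4073 to 4605 CPM. Of 9 interneuron markers 1 was lower and 1 higher (22.2%), with sums of 875.8 to 1029 and 928.5 to 1065 CPM. The lower one was Sst (log2 fold change -0.28, SE 0.043, edgeR adjusted p = 1.48e-05), also the 1 of 4 markers of the interneurons known to express the most Nos1 that passed, whose sums were 227 to 303.2 CPM in adults and 256.8 to 372.8 CPM in adolescents. The sums of 8 mature oligodendrocyte markers were 1672 to 5976 CPM in adults and 1245 to 6745 CPM in adolescents without water saline replicate 1. Their medians were 1995 and 2792 CPM. With all 35 libraries none of these 8 passed within a single treatment. All 8 changes were negative on water with either injection and on antibiotics with morphine, and 3 were on antibiotics with saline. No marker of these lists was at 0 in all 35 libraries, and their part in the age differences of the members was not tested.

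Mice on antibiotics had lower Grm3 than mice on water. Averaged over age and injection, 8 of the 31 members (25.8%) were lower on antibiotics and none higher, where 5.05% of all genes were lower and 10.2% changed in either direction. They were Grm3, Grm7, Grin2c, Grm5, Gria4, Grin3a, Cacng4 and Nos1, and Grm3 changed the most. The median log2 fold change was -0.04 over the members and -0.0008 over all genes. In single groups, 3 members (9.68%) were lower in adults with morphine, where 1% of all genes were lower and 1.92% changed in either direction. In adolescents with morphine 1 member (3.23%) was lower, against 0.626% lower and 1.11% in either direction. With saline no member passed by edgeR at either age, where 0.0103% of all genes passed in adolescents and 0.031% in adults, while 8 and 5 members had an unadjusted p under 0.05, as did 9.85% and 8.76% of all genes. DESeq2 called 1 member in those adolescents, Nos1, and none in those adults. Without adolescent water saline replicate 1 the averaged count was 11, where 13% of all genes passed, and the count in adults with morphine 5, where 3.52% did. The members gained were Grin2b, Grm2 and Cacng3 in the average and Grin3a and Grm5 in adults with morphine. The averaged log2 fold changes without that library were -0.36 for Grm3, -0.24 for Grm7, -0.18 for Gria4 and -0.20 for Grin2c, with edgeR adjusted p = 2.18e-09, 1.84e-05, 4.82e-05 and 0.00139. For Grin3a, Grm5, Cacng4 and Nos1 they were -0.16, -0.12, -0.16 and -0.19, with edgeR adjusted p = 0.00176, 0.00459, 0.00627 and 0.0361.

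Grm3 in adolescents with saline was at 65.5, 61.8, 64.8, 64.2 and 60.9 CPM on water and at 50.4, 52.3 and 53.5 on antibiotics. In adolescents with morphine Grm3 was at 60.4, 59.6, 57.2, 58.2 and 53.9 CPM on water and at 44.5, 43.9, 42.4, 45.5 and 45.2 on antibiotics. Every adolescent library on antibiotics lay below every adolescent library on water. Grm3 in adults with saline was at 51.6, 64.9 and 54.5 CPM on water and 47.7, 41.4, 48.8, 41.97 and 57.5 on antibiotics. In adults with morphine the Grm3 values were 55.5, 58.1, 55.2, 54.7 and 51.3 CPM and 36.98, 36.02, 41.2 and 39.4. The adult saline groups overlapped and the adult morphine groups did not. The change was -0.52 (SE 0.069, edgeR adjusted p = 1.79e-05) in adults with morphine and -0.38 (SE 0.063, edgeR adjusted p = 0.000871) in adolescents with morphine. With saline it was -0.29 (SE 0.072, edgeR adjusted p = 0.125) in adolescents and -0.26 (SE 0.072, edgeR adjusted p = 0.187) in adults, and neither passed. The averaged change of -0.36 (SE 0.035, edgeR adjusted p = 4.43e-09) corresponds to 0.778 times the level on water. Both morphine results and the average passed in every alternative that was run, including each fit without 1 library, where the highest adjusted p was 0.00547 in adolescents and 0.000377 in adults.

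Grm7 in adults with morphine was at 50.1, 51.5, 50.4, 51.5 and 44.5 CPM on water and at 33.03, 36.2, 38.5 and 41.4 on antibiotics. Grm7 in adults with saline was at 50.5, 54.9 and 48.8 CPM and 43.1, 45.9, 44.3, 44.7 and 39.5. In both pairs the groups did not overlap. Adolescent Grm7 values with saline were 44.7, 54.4, 59.1, 49.3 and 48.8 CPM on water and 48.4, 47.9 and 43.9 on antibiotics, and with morphine 54.8, 45.2, 50.5, 51.1 and 44.2 CPM and 49.2, 46.7, 41.1, 46.8 and 44.1, with overlap in both. Grm7 was lower in adults with morphine (log2 fold change -0.41, SE 0.074, edgeR adjusted p = 0.00151) and in the average (log2 fold change -0.22, SE 0.038, edgeR adjusted p = 0.000121). With saline the adult change was -0.24 (SE 0.079, edgeR adjusted p = 0.31).

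Gria4, the AMPA subunit with fast kinetics known from interneurons, was at 109, 114, 117, 118 and 101 CPM in adults with morphine on water and at 85.2, 88.4, 93.3 and 90.5 on antibiotics. Gria4 in adults with saline was at 116, 123 and 119 CPM and 101, 106, 112, 102 and 86.7. Neither adult pair overlapped. In adolescents Gria4 was at 78.6, 106, 107, 119.9 and 112 CPM on water and 111, 111 and 105 on antibiotics with saline, and at 106, 103, 118, 111 and 105 CPM and 102, 99.5, 95.7, 104 and 99.9 with morphine, and the ranges overlapped. Gria4 was lower in adults with morphine (log2 fold change -0.32, SE 0.075, edgeR adjusted p = 0.0158) and in the average (log2 fold change -0.15, SE 0.038, edgeR adjusted p = 0.00742). The first of these missed the threshold without adult water morphine replicate 4 (adjusted p = 0.0525) or adult antibiotics morphine replicate 1 or 2 (0.0646 and 0.0724). The interaction of age with antibiotics for Gria4 was -0.25 (SE 0.077, edgeR adjusted p = 0.941).

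The 250 bases before the RefSeq starts of these 3 genes (GRCm38.p6) are shown because they are the members that passed between antibiotics and water within adults given morphine, with the GC box in capitals. They lie at chr5:9725353-9725602 (minus strand) for Grm3, chr6:110645262-110645511 (plus strand) for Grm7 and chr9:4796235-4796484 (minus strand) for Gria4.
Grm3: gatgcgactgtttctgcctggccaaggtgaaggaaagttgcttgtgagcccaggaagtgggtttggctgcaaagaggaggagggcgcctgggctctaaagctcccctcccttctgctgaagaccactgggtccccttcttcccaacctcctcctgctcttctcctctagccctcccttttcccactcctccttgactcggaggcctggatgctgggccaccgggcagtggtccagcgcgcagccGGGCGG
Grm7: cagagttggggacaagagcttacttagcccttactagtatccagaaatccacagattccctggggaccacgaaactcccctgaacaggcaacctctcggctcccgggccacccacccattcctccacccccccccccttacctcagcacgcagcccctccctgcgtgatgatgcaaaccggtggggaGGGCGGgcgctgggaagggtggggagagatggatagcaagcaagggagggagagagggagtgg
Gria4: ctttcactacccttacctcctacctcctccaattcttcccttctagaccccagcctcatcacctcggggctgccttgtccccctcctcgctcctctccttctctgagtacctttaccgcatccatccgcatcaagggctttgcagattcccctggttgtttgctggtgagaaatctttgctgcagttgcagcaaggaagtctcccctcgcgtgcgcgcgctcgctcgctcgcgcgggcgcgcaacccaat
Grm3 held 1 GC box starting 6 bases before the start and Grm7 held 1 starting 63 bases before it, while Gria4 held none. Their GC contents were 62.4%, 62% and 58.8%. None of the other 4 motifs was found in these windows. RefSeq places the Grm3 and Grm7 starts upstream of those in GENCODE M21.

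The other members that passed in the average changed less than Grm3 and Grm7. Grin2c was at 43.4 ± 4.9 and 43.4 ± 1.8 CPM (SD) in adolescents on water with saline and morphine, and at 41.3 ± 3.8 and 36.1 ± 3.9 CPM on antibiotics. In adults the Grin2c means were 46.1 ± 4.4 and 42.2 ± 3.2 CPM on water and 41.3 ± 4.8 and 35.2 ± 2.4 CPM on antibiotics (log2 fold change -0.19, SE 0.044, edgeR adjusted p = 0.00468). Grm5 had the highest mean in adolescents on water with saline, 185 ± 6.8 CPM, and the lowest in adults on antibiotics with morphine, 152 ± 7.2 CPM (log2 fold change -0.12, SE 0.03, edgeR adjusted p = 0.00625). For Grin3a, Cacng4 and Nos1, whose values in each library are given with age, the averaged changes were -0.14 (SE 0.041, edgeR adjusted p = 0.0212), -0.20 (SE 0.058, edgeR adjusted p = 0.0229) and -0.19 (SE 0.059, edgeR adjusted p = 0.0354). Nos1 means on water and antibiotics in adolescents were 50.6 and 35.7 CPM with saline and 35.4 and 35.1 with morphine. In adults they were 36.8 and 35.6 CPM with saline and 41.5 and 36.2 with morphine. Adolescent Cacng4 means were 44.9 (39.95 without replicate 1) and 34.03 CPM with saline and 31.7 and 31.1 with morphine. Adult ones were 27.8 and 25.25 CPM with saline and 26.6 and 22.7 with morphine. Cacng4 missed the threshold without adult water saline replicate 3 (adjusted p = 0.0546), and Nos1 in 13 of the 35 fits that each left out 1 library (0.0504 to 0.0663), the highest without adolescent antibiotics saline replicate 5. Of the most abundant receptors, none of which passed with all 35 libraries, Grin1 had an averaged change of 0.035, Grin2a of -0.032, Grin2b of -0.13, Gria1 of 0.064 and Gria2 of -0.067. Grin2b was lower on antibiotics when adolescent water saline replicate 1 was left out (log2 fold change -0.16, SE 0.05, edgeR adjusted p = 0.0329), as were Cacng3 (-0.21, edgeR adjusted p = 0.00197) and Grm2 (-0.13, edgeR adjusted p = 0.044). No kainate subunit passed, and 4 of these 5 had a positive change, from 0.034 in Grik5 to 0.11 in Grik4. Cnih2 and Cnih3 had changes of -0.023 and 0.0013.

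The related lists are read against the 5.05% of all genes that were lower on antibiotics and the 10.2% that changed in either direction. Of 15 glutamate transport and metabolism genes 4 were lower (26.7%), of 24 scaffold and kinase genes 4 were lower and 1 higher (20.8%), and of 22 receptor and auxiliary genes of other kinds 3 were lower and 1 higher (18.2%). Of 22 synaptic organisers 1 was higher (4.55%). None of 11 nitric oxide signalling genes passed by edgeR. Listed genes with the smallest p were the microglial receptor Cx3cr1 (log2 fold change -0.24), the astrocyte water channel Aqp4 (-0.46), the scaffold Akap5 (-0.26) and the microglial gene Tmem119 (-0.22), with edgeR adjusted p = 5.91e-06, 3.05e-05, 0.00012 and 0.000205. Of 7 astrocyte markers 2 were lower and 1 higher (42.9%), and their summed level was 729.4 to 948 CPM on antibiotics and 823.9 to 1071 CPM on water, without adolescent water saline replicate 1. Of 6 microglia markers 5 were lower (83.3%), with sums of 244.1 to 337.7 CPM on antibiotics and 285.1 to 395 CPM on water. Markers of other lists passed too. The interneuron marker Reln (log2 fold change -0.175), the immature neuron marker Tubb3 (-0.155) and the oligodendrocyte precursor marker Tnr (-0.11) were lower. The interneuron marker Lhx6 (0.14) and the excitatory neuron marker Tbr1 (0.13) were higher. Interneuron sums were 875.8 to 1065 CPM on antibiotics and 898.5 to 1019 CPM on water. No marker of these lists was at 0 in all 35 libraries, and their part in the changes of Grm3 and the other members was not tested.

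**Figure D4:**
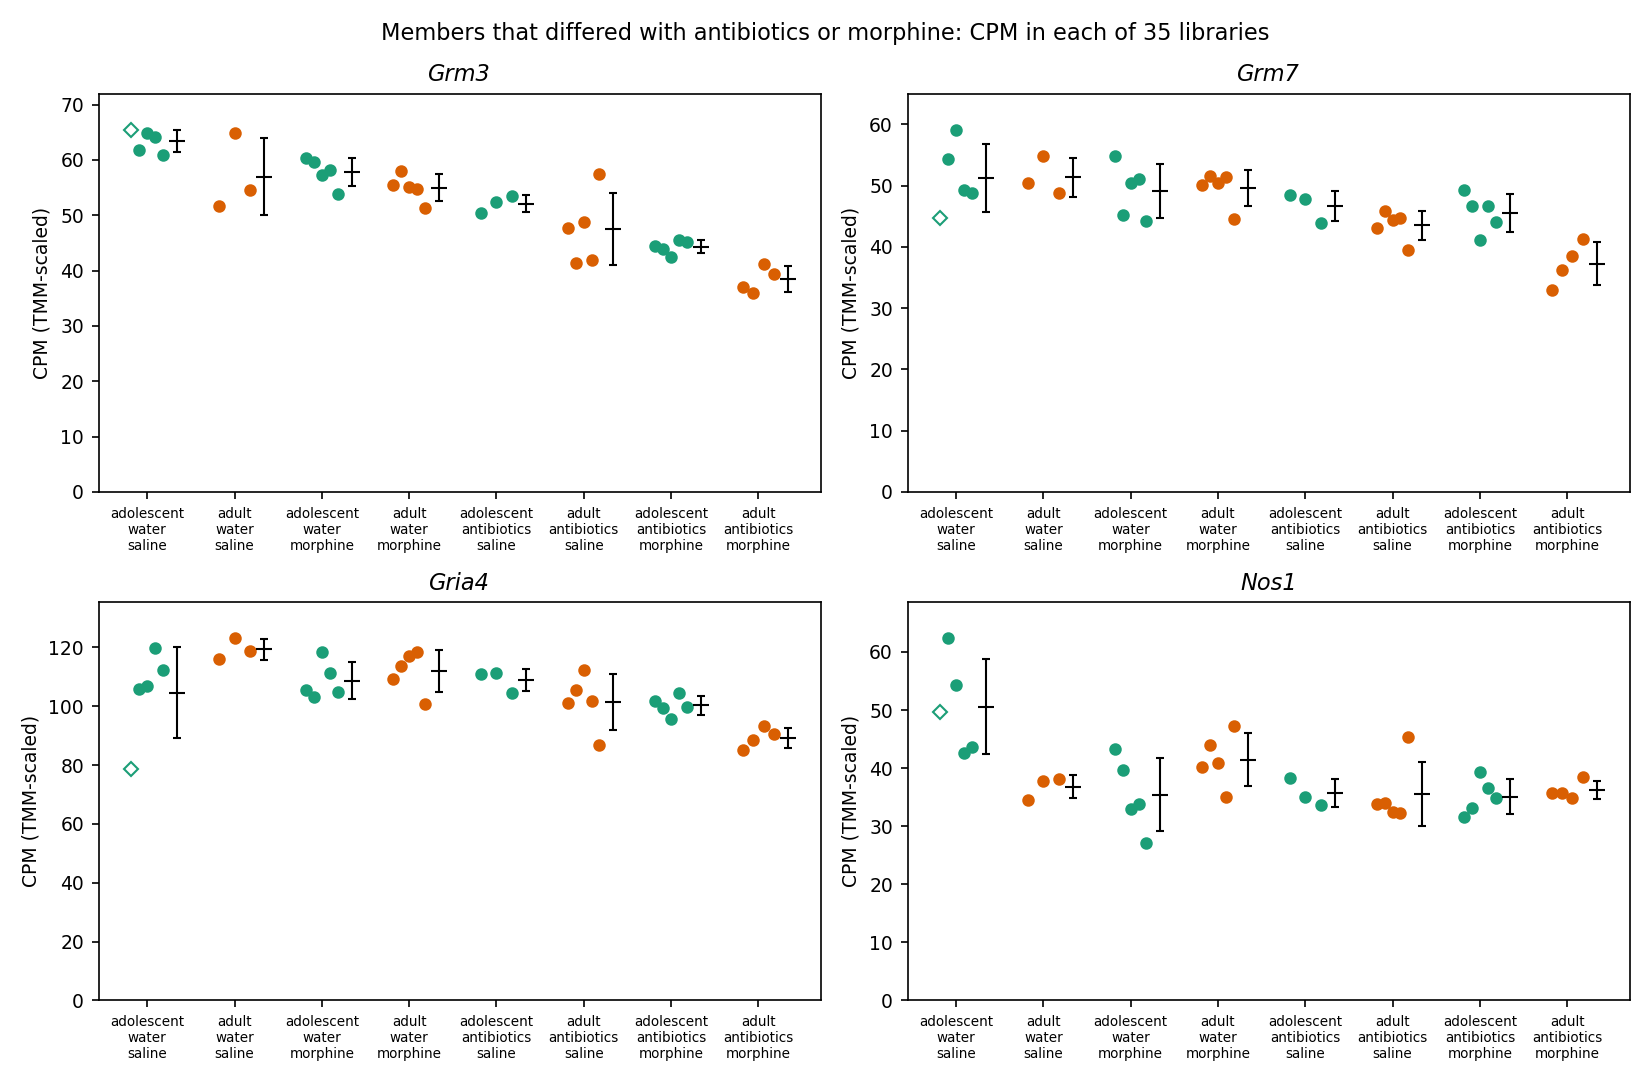
CPM of Grm3, Grm7, Gria4 and Nos1 in each of 35 libraries by group, adolescents in green and adults in orange, with group mean and SD in black; the open diamond is adolescent water saline replicate 1. Grm3 spans 36.0 to 57.5 CPM on antibiotics and 51.3 to 65.5 CPM on water, and Nos1 is highest in adolescents on water with saline.

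Morphine changed few members. Averaged over age and drink, Grm3 was the 1 member (3.23%) that passed, lower with morphine, where 0.186% of all genes were lower and 0.316% changed in either direction. In adolescents on water 2 members (6.45%), Cacng4 and Nos1, were lower, against 0.145% of all genes lower and 0.331% in either direction. In the other 3 settings no member passed by edgeR. These were adolescents on antibiotics, where 0.0466% of all genes passed, and adults on water and adults on antibiotics, where 0% did. In that order 3, 1 and 7 members had an unadjusted p under 0.05, as did 7.57%, 2.89% and 7.88% of all genes, and DESeq2 called 0, 0 and 1, the last being Grm3. Without adolescent water saline replicate 1 the averaged comparison held 3 members, Grm3, Gria4 and Cacng4, and 1.3% of all genes.

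Grm3 with morphine had an averaged change of -0.18 (SE 0.034, edgeR adjusted p = 0.0104), or 0.882 times the level with saline, and of -0.18 (edgeR adjusted p = 0.00502) without adolescent water saline replicate 1. By the values given above, Grm3 was lower with morphine than with saline without overlap in adolescents on water, in adolescents on antibiotics and in adults on antibiotics, and the groups overlapped in adults on water. Its single changes, none of which passed, were -0.13, -0.23, -0.31 and -0.054 in that order, with edgeR adjusted p = 0.392, 0.342, 0.168 and 1. The listed genes with the smallest p beside it were Cx3cr1, the interneuron peptide Sst, the transporter Slc1a4 and Tmem119, lower with morphine by edgeR at adjusted p = 0.0104, 0.0365, 0.048 and 0.0489. Of 6 microglia markers 2 were lower and of 7 astrocyte markers none passed. The sums of the astrocyte markers in adolescents on water were 882.2 to 1071 CPM with saline and 823.9 to 939.1 CPM with morphine. In adolescents on antibiotics they were 789.3 to 948 and 758.2 to 843.3 CPM. Adult sums were 826.8 to 960.2 and 831.4 to 914 CPM on water, and 757.8 to 884.4 and 729.4 to 863 CPM on antibiotics. The ranges overlapped in every setting, and the part of these markers in the Grm3 change was not tested.

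In adolescents on water Cacng4 was at 34.7 to 64.9 CPM with saline and 29.3 to 34.7 CPM with morphine. Its change was -0.51 (SE 0.10, edgeR adjusted p = 0.0223), and -0.33 (SE 0.075, edgeR adjusted p = 0.0606) without adolescent water saline replicate 1. It also missed the threshold without adolescent water saline replicate 3 (adjusted p = 0.059) or adolescent water morphine replicate 3, 4 or 5 (0.0911, 0.0575 and 0.102), and with no filter on low counts (0.0562). Nos1 was at 42.6 to 62.4 CPM with saline and 27.1 to 43.4 CPM with morphine, and 1 morphine library lay within the saline range. Its change was -0.50 (SE 0.11, edgeR adjusted p = 0.0276), and -0.50 (SE 0.12, edgeR adjusted p = 0.0812) without adolescent water saline replicate 1. Nos1 likewise missed the threshold without adolescent water saline replicate 2 or 3 (adjusted p = 0.0684 and 0.0745) or adolescent water morphine replicate 3, 4 or 5 (0.108, 0.0735 and 0.126), and with no filter on low counts (0.0654). With that 1 library left out, no member and 0.104% of all genes passed in this comparison. Markers of the interneurons known to express the most Nos1 (Chodl, Sst, Npy and Tacr1) summed to 327.2 to 348.5 CPM with saline without replicate 1, which was at 237.6 CPM, and to 256.8 to 321.1 CPM with morphine. Their median log2 fold change was -0.29, and 3 of the 4 were negative. None of these 4 passed by edgeR and none was at 0 in all 35 libraries, and their part in the Nos1 difference was not tested. Of 9 immature neuron markers 2 were lower with morphine, with sums of 1045 to 1122 CPM against 881.3 to 1065 CPM, and their part in the Cacng4 difference was not tested.

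The abundant receptors did not pass with morphine. Grin1, Grin2a and Grin2b had averaged changes of 0.037, 0.039 and -0.040, and Gria1 and Gria2 of 0.0021 and 0.043. Cnih2, the member most changed with age by its p, had one of -0.075 (edgeR adjusted p = 0.327). Grin2c had -0.14 (SE 0.044, edgeR adjusted p = 0.178) and Cacng4 had -0.21 (SE 0.058, edgeR adjusted p = 0.0959). With adolescent water saline replicate 1 left out Cacng4 passed at -0.17 (SE 0.04, edgeR adjusted p = 0.0244), and so did Gria4 at -0.11 (SE 0.029, edgeR adjusted p = 0.0492).

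No difference between effects passed for any member. The 4 interactions tested were age by morphine, age by antibiotics, and antibiotics by morphine in adolescents and in adults, in which 0.00517%, 0%, 0.0621% and 0.00517% of all genes passed by edgeR. Unadjusted p values under 0.05 were found for 4, 3, 5 and 2 members and for 6.32%, 4.91%, 6.51% and 3.8% of all genes, and DESeq2 called none. For Nos1 the morphine change in adolescents was 0.48 higher on antibiotics than on water (edgeR, log2 scale, SE 0.16, adjusted p = 0.605), and it was 0.36 higher in adults than in adolescents (adjusted p = 0.626). For Cacng4 the first of these differences was 0.38 (edgeR, SE 0.16, adjusted p = 0.688). The age, antibiotic and morphine changes that passed in one setting and not in another are therefore not shown to differ between the settings.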

How the data were processed

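The labels name a Qiagen column kit for extraction and an ABclonal kit for making libraries from polyadenylated RNA. The table holds read counts per gene as the authors deposited them, not normalized. Per the submitters' processing notes, the tools were STAR 2.7.10a and DESeq2 and the genome build mm10; what DESeq2 was used for, which annotation was counted and whether strand was used are not given there. The 31 members and all lists were chosen with earlier results of these data known.

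Symbols and exon lengths came from GENCODE M21, which matched 52073 of the 56980 identifiers, and the 4907 unmatched ones hold 3.86% of counts. The 2 libraries under 1000000 counts were left out by the rule that defines the gene set. Counts of 35 libraries were fitted once in R 4.3.3 with edgeR 4.0.16 (TMM, filterByExpr on the 8 groups, robust quasi-likelihood, a mean per group) and the 19 comparisons were tested, each adjusted over 19332 genes at a threshold of 0.05. CPM values use TMM-scaled totals. No 2 libraries of a group held the same counts: the chi-square per gene was 1.78 to 64 over 62 pairs. No cut was set for this value, so it cannot tell whether 2 libraries came from the same animal or RNA. The code was tested on simulated data.

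All 31 members are named. Values in every library are given for the members that passed in a comparison of 2 groups and for Grin1, Grin2a, Grin2b, Grin3a, Gria1, Gria2, Cacng4 and Nos1, and up to 4 listed genes a comparison by smallest p. Alternatives were DESeq2 1.42.0, its size factors in edgeR, no filter, all 37 libraries, 34 libraries without the one that stood apart, a replicate block and leaving out each library. Motifs were searched on both strands of the RefSeq promoter table (GRCm38.p6), which holds 21 of the 31 members.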

Additional observations from a re-analysis of the deposited data

Results flagged for a closer look

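In 186 sets of a member and a group of 4 or 5 libraries, 13 held a library whose gap to the nearest of the others was large against the range of the group, and chance gives about 1 in 20. Of these, 5 lie in adolescent water saline replicate 1, which also stood apart by its markers. There Grin2b was at 487 CPM (others 672 to 741), Gria3 at 178 (242 to 260), Grm2 at 52.3 (96.7 to 105), Cnih3 at 56.6 (93.9 to 104) and Cacng5 at 15.6 (4.16 to 6.64).

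The other 8 are spread over 5 libraries. Adolescent water morphine replicate 5 was low for Grin3a, at 43.2 CPM (others 53.4 to 56.3), and for Cnih3, at 61.9 (96.7 to 101). Adult water morphine replicate 5 was low for Grm7, at 44.5 CPM (50.1 to 51.5), and for Cacng2, at 96.2 (113 to 116), and high for Cacng5, at 7.67 (3.74 to 4.8). Cacng3 was high in adult antibiotics morphine replicate 3, at 137 CPM (113 to 115). Cnih3 was low in adolescent antibiotics morphine replicate 2, at 83.8 CPM (91.6 to 94.3), and Nos1 high in adult antibiotics saline replicate 5, at 45.4 CPM (32.3 to 34.1).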

How the results depend on the processing

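Across the alternatives other than leaving out each library in turn, 114 counts of members past the threshold were compared with the reported ones. Of these, 102 stayed within 1.5 times the reported count and 12 did not. The fit of 34 libraries is among these alternatives. With DESeq2 the count with age was 5 on antibiotics with saline and 7 on antibiotics with morphine, the count with morphine 1 in adults on antibiotics and 2 in the average, and the count with antibiotics 1 in adolescents with saline. Without adolescent water saline replicate 1 the same age counts were 6 and 7, the morphine counts 0 in adolescents on water and 3 in the average, and the antibiotics count 5 in adults with morphine. With all 37 libraries the age count on water with morphine was 0, and with no filter the morphine count in adolescents on water was 0. Beyond the main fit, shares of all genes were computed for the fit of 34 libraries only. Member counts from the other fits, here and below, therefore have no such share beside them. The causes were not tested. Of 37 passing pairs of member and comparison, 24 passed in every alternative and in every fit without 1 library, and none changed direction.

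Leaving out 1 library at a time gave age counts of 2 to 6 on water with saline, 0 to 1 on water with morphine, 2 to 6 on antibiotics with saline, 2 to 7 on antibiotics with morphine and 8 to 12 in the average. Morphine counts were 0 to 2 in adolescents on water, 0 to 1 in adults on antibiotics and 1 to 3 in the average. Antibiotics counts were 0 to 1 in adults with saline, 1 to 1 in adolescents with morphine, 2 to 5 in adults with morphine and 7 to 11 in the average. The other counts, the interactions among them, stayed at 0. The age count on water with saline was 2 without adult water saline replicate 1.

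Replicate numbers are shared by the groups, but libraries of the same number did not deviate together (median correlation 0.005 over 108 pairs, 14 of them over 0.1, and 9 of 35 libraries correlated best with their own number). With the replicate block the age counts were 5, 1, 3 and 4 in the order above and 9 in the average, the antibiotics average was 10, and Grm2 missed the threshold with age (adjusted p = 0.0645). With 3 to 5 libraries a group precision was lowest for Cacng5, whose SD within groups was 28.5% of its mean. Without adolescent water saline replicate 1 it was 19.6%, and precision was then lowest for Grik3, at 19.9%.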
